A study of Mus musculus with 30 samples.

Results

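The 2'-5'-oligoadenylate synthetase (OAS) family was followed through 30 RNA-seq libraries of mouse dendritic cells. Members were the rows of the deposited count table with the symbols Oas1a, Oas1b, Oas1c, Oas1g, Oas2, Oas3, Oasl1 and Oasl2, which gave 8 genes of 25611 rows, and all 8 passed the filter on low counts.

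The cells were FLT3L-derived bone marrow dendritic cells, grown for 6 to 7 days with FLT3L at 200 ng/ml, from Rubcn KO or WT mice. Rubcn encodes Rubicon, a regulator of autophagy and of the non-canonical pathway that attaches LC3 to phagosomes. For each genotype there were 5 groups of 3 libraries: untreated cells, cells given OVA for 30 min or 4 h, and cells given apoptotic Jurkat cells for 30 min or 4 h, Jurkat being a human T-cell leukaemia line. All groups shared the FLT3L culture, and each treated group of a genotype was compared with the same 3 untreated libraries. The labels do not give the strain, the age or sex of the mice, the part of Rubcn that was removed, or whether libraries of a group came from separate mice or cultures, so p-values measure only the spread between these libraries.

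OAS proteins are sensors of double-stranded RNA. On binding it, the active members join ATP into short chains with 2'-5' links, which serve as a second messenger of the antiviral response. The genes are classical interferon-stimulated genes: type I interferon, which dendritic cells both make and answer, acts through its receptor, JAK kinases and the transcription factor complex ISGF3, which binds a repeat of GAAA separated by a short spacer. Mouse Oas1a and Oas1g, Oas2 and Oas3 encode active synthetases, Oas1b is the flavivirus resistance gene that is truncated in common laboratory strains, and the OAS-like gene Oasl1 encodes a brake on the translation of Irf7 mRNA, while its neighbour Oasl2 encodes a protein that keeps synthetase activity.

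All 8 genes lay in 2 clusters on chromosome 5 (mm10). Oas2 (120730333 to 120749848), Oas3 (120753098 to 120777659), Oas1c (120800199 to 120812514), Oas1g (120876142 to 120887613) and Oas1a (120896257 to 120907525) were on the minus strand, with Oas1b (120812635 to 120824160) between them on the plus strand. Oasl2 (114896934 to 114912245) and Oasl1 (114923240 to 114937911) were neighbours on the plus strand. RefSeq's GRCm38.p6 annotation lists Oas1b as a transcribed pseudogene and the other 7 as protein coding.

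Sequence is shown first because it bears on which members can be told apart and on what their upstream regions share. RefSeq start-site windows (GRCm38.p6, 300 bases: 250 before and 50 after the start) were given for 6 of the 8 members, not for Oas1b and Oas2. The letters GAAA, 2 bases of any kind and GAAA again, the core of the ISGF3 element, were searched on both strands, with overlapping matches counted. They occurred in the windows of Oas1a, Oas1g, Oas1c and Oas3 and not in those of Oasl1 and Oasl2, against 1131 of 32851 windows of the genome (3.44%). The 120 bases upstream of the starts of Oas1a, Oas1g and Oas3, and the interval between Oas1c and Oas1b, read from the strand of Oas1c, are printed 5' to 3' with each match in capitals.

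Oas1a, chr5:120907526-120907645, minus strand: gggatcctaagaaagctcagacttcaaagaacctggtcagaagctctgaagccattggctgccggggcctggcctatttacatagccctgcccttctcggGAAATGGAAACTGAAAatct
Oas1g, chr5:120887614-120887733, minus strand: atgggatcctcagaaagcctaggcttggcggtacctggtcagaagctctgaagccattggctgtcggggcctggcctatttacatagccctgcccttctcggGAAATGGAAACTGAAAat
Oas1c to Oas1b interval, chr5:120812515-120812634, minus strand: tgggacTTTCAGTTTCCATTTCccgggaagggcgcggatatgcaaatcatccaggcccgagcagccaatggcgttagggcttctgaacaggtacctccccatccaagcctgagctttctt
Oas3, chr5:120777660-120777779, minus strand: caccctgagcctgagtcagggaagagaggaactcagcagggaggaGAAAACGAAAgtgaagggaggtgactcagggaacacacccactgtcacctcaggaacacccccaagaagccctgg

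Oas1a and Oas1g carried the same 16 bases, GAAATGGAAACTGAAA, which hold 2 overlapping matches and begin 20 and 18 bases upstream of their starts. The same 16 bases stood in the 120 bases between Oas1c and Oas1b, on the strand of Oas1b: they begin 22 bases upstream of the Oas1b start in the deposited table, and their far end lies 114 bases upstream of Oas1c. Of 32851 windows, 7 held these 16 bases, and they belonged to 5 genes (Oas1a, Oas1c, Oas1g, Apol9a and Apol9b). Oas3 had a single match 75 bases upstream. The 250 bases upstream of Oas1a and Oas1g were 86.9% identical over 244 aligned positions, against 57.5% for Oas1a and Oas1c. A match is a run of letters and not a measured binding site, and no match in the Oasl1 and Oasl2 windows says only that these letters are not in those 300 bases.

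The copies are close enough for their counts to be uncertain. In annotated transcripts (GENCODE M21), 57.6% of the 50-base words of Oas1a also occurred in Oas1g and 45.3% of those of Oas1g occurred in Oas1a, and at 100 bases the shares were 40.9% and 31.3%. At 50 bases, 84.9% of the words of Oas1c and 97.0% of those of Oas1b were found in no other gene, and for Oas2, Oas3, Oasl1 and Oasl2 the share was 99.5% to 100%. Neither the read length nor the treatment of reads with several matching places is given in the sources used here. Values of Oas1a and Oas1g are therefore given as deposited, and the summed counts of all Oas1 copies are given beside the main comparisons.

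Total counts per library ran from 9.74 to 51.6 M with a median of 44.9 M, and the shallowest library was Rubcn KO, 30 min OVA, replicate 3 (the next held 38.7 M). Libraries of a group differed by more than counting noise in every pair, so none was counted as a duplicate. Rubcn KO, 4 h Jurkat, replicate 2 differed from its group by a chi-square per degree of freedom of 121 and 126, against at most 15.7 in any pair without it. It held 3.90% of its counts on Rn45s, the ribosomal RNA precursor, against 0.0949% to 0.384% in the other 29 libraries, and without the rows Rn45s, Lars2 and Mir6236, which differed most, the values were 6.28 and 4.63. Rubcn itself fell in the knockout in all 5 conditions, by between 0.24 and 0.44 on the log2 scale (untreated 72.8 against 98.9 CPM, counts per M counts of a library after TMM scaling), so most of its reads remained. Markers of conventional dendritic cells were all detected. They summed to 25530 to 28267 CPM per library at 4 h of Jurkat cells and to 14619 to 17522 CPM in the other groups. In knockout cells 1 to 3 of these 10 genes were lower in each condition, with 1 higher untreated and 2 higher at 4 h of Jurkat cells. The 7 monocyte and macrophage genes summed to 3145 to 3535 CPM per library at 4 h of Jurkat cells and to 3710 to 4580 CPM in the other groups. In the knockout 3 of 7 were lower at 30 min of OVA and at 4 h of either treatment, and 1 of 7 in the other conditions. For that list 1 of 7 was higher untreated and at 4 h of Jurkat cells. The 6 basophil and mast cell genes were higher in the knockout in all 5 conditions by edgeR (6 of 6, summed 54.8 to 108 CPM against 19.6 to 36.6), as were 4 or 5 of 5 stromal genes. The 5 B and plasma cell genes summed to 30.9 to 38.4 CPM in every knockout and 21.4 to 26.8 CPM in every wild-type library (1 or 2 of 5 called higher), and 3 of 5 neutrophil genes were lower in the knockout at 30 min of OVA and at 4 h of either treatment. The 9 plasmacytoid dendritic cell genes, which mark the dendritic cells known for abundant interferon, summed lower in the knockout without overlap in each condition (2371 to 2521 against 2721 to 2727 CPM untreated), with 4 to 6 of 9 lower and 1 of 9 higher. The part of these shifts in the OAS results was not tested, and in bulk samples fewer cells of a type and less RNA per cell cannot be told apart.

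Rubcn KO dendritic cells held less OAS family RNA before any treatment. All 8 members were lower in untreated knockout cells than in untreated wild-type cells (edgeR quasi-likelihood test, false discovery rate (FDR) under 0.05 over 14808 genes), where 3.97% of all tested genes were lower. The median log2 fold change of the members was -1.49, or 2.82-fold lower, against -0.01 for all genes.

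Oas1a, the first of the close copies, stood at 15.03, 14.9 and 13.3 CPM in knockout and 32.7, 33.1 and 34.5 CPM in wild-type cells. Oas1g stood at 1.64, 1.70 and 1.38 CPM in knockout and 6.26, 6.96 and 6.90 CPM in wild-type cells. Every wild-type library was above every knockout library for both genes, and the gap was wider for Oas1g. The share of all tested genes whose libraries were so separated was not counted, for this or any later comparison. The log2 fold change was -1.22 ± 0.12 (SE; edgeR FDR 3.21e-08) for Oas1a and -2.09 ± 0.17 (FDR 1.15e-09) for Oas1g. Summed over all Oas1 copies, the change was -1.25 ± 0.12 (SE; edgeR FDR 2.47e-08).

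The larger synthetases, built from repeats of the OAS unit, were also lower. Oas2 stood at 19.9, 24.3 and 21.3 CPM in knockout and 59.0, 55.5 and 64.1 CPM in wild-type cells, and Oas3 at 22.8, 21.2 and 18.3 against 61.7, 54.0 and 65.6 CPM. Neither gene's libraries overlapped between genotypes. The log2 fold changes were -1.45 ± 0.15 (SE; edgeR FDR 8.85e-08) and -1.54 ± 0.16 (FDR 7.64e-08).

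Among the OAS-like genes, Oasl2 stood at 22.4, 22.3 and 17.3 CPM in knockout and 64.7, 56.3 and 67.1 CPM in wild-type cells. Oasl1 was a low-level transcript at 2.37, 1.89 and 1.42 CPM in knockout and 5.94, 6.71 and 6.69 CPM in wild-type cells. Both pairs of groups were separate. The log2 fold changes were -1.60 ± 0.20 (SE; edgeR FDR 1.88e-06) for Oasl2 and -1.77 ± 0.54 (FDR 0.0337) for Oasl1. The Oasl1 call was lost when any of the 6 libraries was left out (edgeR FDR 0.057 to 0.108). The model of all 30 libraries includes Rubcn KO, 30 min Jurkat, replicate 1, described below. Without that library and the shallowest one the edgeR FDR was 2.18e-07. These 2 libraries were picked after seeing the data, so this FDR is no independent test.

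The weakest differences were in the divergent neighbours Oas1b and Oas1c, whose starts have 120 bases between them. Oas1b stood at 3.70, 3.69 and 3.95 CPM in knockout and 7.28, 6.90 and 8.65 CPM in wild-type cells, and Oas1c at 1.74, 1.93 and 1.56 against 2.96, 2.74 and 3.61 CPM. The groups were separate for each gene. The log2 fold changes were -1.01 ± 0.15 (SE; edgeR FDR 4.23e-05) and -0.83 ± 0.14 (FDR 0.000212).

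**Figure D1:**
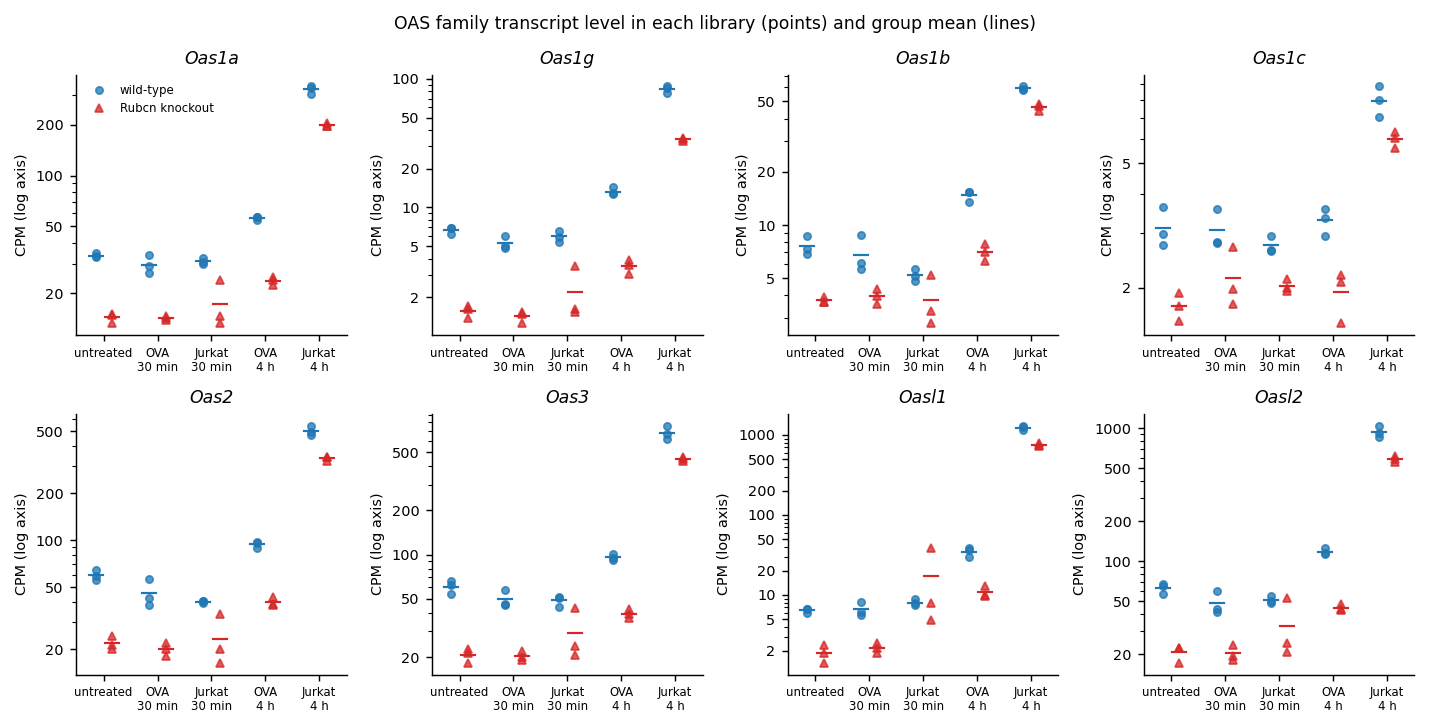
Level of each OAS family gene in each library, as CPM on a log axis, by condition; circles are wild-type and triangles Rubcn KO libraries, and short lines are means of 3. In untreated cells all triangles lie below all circles for every gene (the share of all tested genes so separated was not counted). All 8 genes peak at 4 h with Jurkat cells, and 1 knockout library at 30 min with Jurkat cells stands above its group (Oasl1 at 38.4 against 4.85 and 7.88 CPM).

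The genotype difference was present in the treated groups too, with the sign reversed, but not called, for Oasl1 at 30 min of Jurkat cells. At 30 min of OVA, 7 of 8 members were lower in knockout cells (6.13% of tested genes were lower) with a median log2 fold change of -1.21, and Oasl1 missed the threshold (-1.68 ± 0.58 SE, edgeR FDR 0.0542) although its libraries did not overlap (1.86, 2.17 and 2.51 against 5.59, 6.20 and 8.11 CPM). Without Rubcn KO, 30 min OVA, replicate 2, the call of Oas1c was also lost (FDR 0.115). Oasl1 was called lower there by DESeq2 (adjusted p 0.00406). By edgeR it was called with DESeq2 size factors, no filter, a replicate block and the compared groups alone (FDR 0.0498, 0.0259, 0.0422 and 2.89e-06). Summed Oasl1 and Oasl2 were called too (edgeR FDR 0.00149). Oasl1 stayed uncalled when any of the 6 libraries was left out (edgeR FDR 0.0708 to 0.193). At 4 h of OVA, all 8 members were lower (background 6.35%), with a median of -1.26. At 4 h of Jurkat cells, 7 of 8 were lower (background 13.5%), with a median of -0.64. The exception was Oasl1, at 789, 728 and 760 CPM in knockout and 1142, 1306 and 1243 CPM in wild-type cells, with a log2 fold change of -0.70 ± 0.29 (SE; edgeR FDR 0.0828). The edgeR FDR was 9.88e-06 without Rubcn KO, 30 min Jurkat, replicate 1 and the shallowest library, which were picked after seeing the data. At that time the calls of Oas1b (-0.35 ± 0.11 SE, FDR 0.0175) and Oas1c (-0.41 ± 0.12, FDR 0.014) were lost without wild-type replicate 2 (FDR 0.0636 and 0.0994) and, for Oas1b without knockout replicate 2 (FDR 0.0799) and Oas1c without knockout replicate 3 (FDR 0.0626). The Oas1b call was also lost with DESeq2 (FDR 0.0667) and with scaling to total counts (FDR 0.0631). Summed over all Oas1 copies, the log2 fold change of knockout over wild-type cells was -1.04 with OVA and -0.83 with Jurkat cells at 30 min (edgeR FDR 1.95e-06 and 3.03e-05), and -1.27 with OVA and -0.74 with Jurkat cells at 4 h (FDR 5.7e-09 and 1.11e-05).

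At 30 min of Jurkat cells, 5 of 8 members were lower in knockout cells (Oas1a, Oas1g, Oas2, Oas3 and Oasl2), where 3.67% of tested genes were lower. Here replicate 1 of the knockout group was the highest of its group for all 8 members. Its Oasl1 level was 38.4 CPM (1773 counts) against 4.85 and 7.88 CPM in the others (232 and 363 counts), its Oasl2 level 52.6 against 20.8 and 24.2 CPM, and its Oas1c level 2.12 against 1.99 and 1.95 CPM. That library therefore stood apart from its group by 6.04-fold for Oasl1 and by 1.08-fold for Oas1c, with the other members between. Ifnb1, which encodes interferon beta, had 11 counts in it and 1 and 3 in the others, all very low counts. The summed T-lineage markers (117 against 118 and 105 CPM) and plasmacytoid markers (2583 against 2505 and 2506 CPM) were near those of the other libraries. Why that library stood apart was not tested. Without it, 6 members were lower, Oas1b being added (log2 fold change -0.78, edgeR FDR 0.00126), the change of Oas1g moved from -1.43 to -1.92, and Oasl1 turned from 1.08 (FDR 0.0763) to -0.34 (FDR 0.244). With replicate 1 kept and replicate 2 or 3 left out, Oasl1 was called higher in knockout cells (1.53 and 1.43, edgeR FDR 0.00208 and 0.0199). Libraries of the genotypes overlapped for Oas1b, Oasl1 and Oasl2. The Oasl2 call (-0.65, FDR 0.0295) was lost without any other library of the comparison (FDR 0.061 to 0.193).

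**Figure D2:**
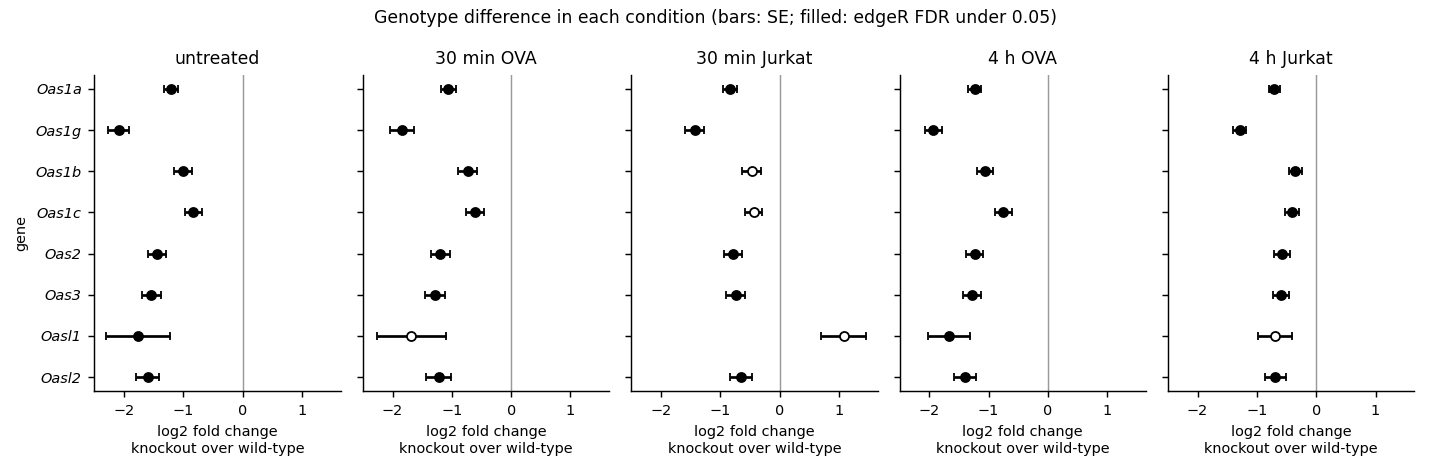
Log2 fold change of Rubcn KO over wild-type cells for each gene in the 5 conditions, with SE bars; filled points passed the edgeR threshold. Points lie left of 0 everywhere but for Oasl1 at 30 min of Jurkat cells, Oas1g is farthest left in each condition, and distances shrink at 4 h of Jurkat cells.

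Treatment for 30 min changed few members. With OVA, 0 members were called in either genotype by edgeR and by DESeq2, and 2 in wild-type and 0 in knockout cells had an unadjusted edgeR p under 0.05. Of all tested genes, 5.51% were called higher and 5.15% lower in wild-type cells and 1.88% each way in knockout cells, so 0 of 8 members is near the background. The largest of these differences was that of Oas2 in wild-type cells (log2 fold change -0.38 ± 0.14 SE, edgeR FDR 0.0842). It was called without wild-type OVA replicate 3 (-0.56, FDR 0.0139). In the model without Rubcn KO, 30 min Jurkat, replicate 1 and the shallowest library, picked after seeing the data, 4 members were called lower in wild-type cells. With Jurkat cells, 2 members were lower in wild-type cells, where 14.5% of tested genes were lower: Oas1b (5.62, 5.17 and 4.83 CPM against 7.28, 6.90 and 8.65 untreated, log2 fold change -0.55 ± 0.15 SE) and Oas2 (40.7, 39.4 and 40.5 CPM against 59.0, 55.5 and 64.1, -0.57 ± 0.14). Neither overlapped its untreated group, and the edgeR FDR was 0.00523 and 0.0034. The count of 2 of 8 members is near the 14.5% of all tested genes, so it is no result about the family. The summed Oas1 copies were not called there (-0.18 ± 0.11 SE, edgeR FDR 0.241).

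In knockout cells given Jurkat cells for 30 min, 3 members were called higher (Oas3, Oasl1 and Oasl2), where 8.72% of tested genes were higher. Without replicate 1 only Oasl1 remained called, at a log2 fold change of 1.75 (edgeR FDR 7.28e-07) in place of 3.17, and Oas3 and Oasl2 stood at 0.10 and 0.13 (FDR 0.665 and 0.615). The calls of Oas3 and Oasl2 were also lost without untreated knockout replicate 3 (FDR 0.156 and 0.121), and that of Oas3 without untreated knockout replicate 2 (FDR 0.0751). The difference between genotypes in this response was called for 0 members by edgeR in the model of all libraries (7 at an unadjusted p under 0.05) and for 1, Oasl1, by DESeq2. Of all genes tested by edgeR, 0 were called higher and 1 lower in this comparison. For Oasl1 it was 2.86 ± 0.66 (SE, log2, edgeR FDR 0.265), and without replicate 1 it was 1.44 (FDR 0.0238). Leaving out knockout Jurkat replicate 2 gave 4 calls (Oas2, Oas3, Oasl1 and Oasl2, FDR 0.00177 to 0.0233), and leaving out replicate 3 gave 1 (Oasl1, FDR 0.0452). In wild-type cells Oasl1 stood at 7.90, 8.78 and 7.46 CPM with Jurkat cells and at 5.94, 6.71 and 6.69 CPM without.

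At 4 h of OVA, 7 of 8 members were higher than in untreated cells in wild-type cells (11.9% of tested genes were higher) and 7 of 8 in knockout cells (background 5.94%). The median log2 fold change was 0.83 in wild-type and 0.92 in knockout cells, against 0.00 for all genes in each. The gene that was not called in either genotype was Oas1c, at 3.35, 3.58 and 2.93 CPM in wild-type cells against 2.96, 2.74 and 3.61 untreated. The largest change was that of Oasl1, to 38.3, 36.0 and 29.8 CPM in wild-type cells (log2 fold change 2.42 ± 0.38 SE, edgeR FDR 1.8e-05) and to 12.9, 9.84 and 9.85 CPM in knockout cells (2.53 ± 0.50, FDR 0.000901). The Oasl1 groups did not overlap the untreated ones in either genotype. The difference between genotypes in the response to OVA at 4 h was called for 0 members by edgeR and by DESeq2 (0 at an unadjusted p under 0.05), with values from -0.05 to 0.27 on the log2 scale. Of all tested genes, 0 were called higher and 6 lower (0.0405%) in this comparison, so the count of 0 is no result about the members. The summed Oas1 copies rose by 0.78 ± 0.11 in wild-type and 0.76 ± 0.12 in knockout cells (SE, log2; edgeR FDR 4.43e-06 and 7.23e-05).

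With apoptotic Jurkat cells for 4 h the whole family rose. All 8 members were higher than in untreated cells in wild-type cells, where 38.9% of tested genes were higher, and all 8 in knockout cells (background 37.5%). The median log2 fold change was 3.38 in wild-type cells, or 10.4-fold, and 4.19 in knockout cells, or 18.2-fold, with medians of all genes at -0.02 and -0.03. Scaling to total counts in place of TMM moved the median of all genes to -0.42 and -0.37 and kept all 8 members called in each genotype. Against 4 h of OVA, all 8 members were also higher in wild-type (background 37.2%) and knockout cells (background 36.3%), with medians of 2.59 and 3.18.

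Oasl1 rose most, to 1142, 1306 and 1243 CPM in wild-type cells from 5.94, 6.71 and 6.69 CPM, and to 789, 728 and 760 CPM in knockout cells from 2.37, 1.89 and 1.42 CPM. The log2 fold change was 7.57 ± 0.41 (SE; edgeR FDR 2.25e-16) and 8.65 ± 0.46 (FDR 1.46e-16), or 191-fold and 401-fold. Oasl2 reached 862, 1043 and 924 CPM in wild-type and 612, 555 and 584 CPM in knockout cells, 15.04-fold and 28.3-fold above untreated cells. For both genes the lowest treated library was far above the highest untreated one, and every wild-type library was above every knockout library.

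Oas3 reached 614, 758 and 661 CPM in wild-type and 462, 434 and 448 CPM in knockout cells. Oas2 reached 473, 542 and 491 CPM in wild-type and 343, 324 and 339 CPM in knockout cells. As for the OAS-like genes, wild-type libraries were all above knockout libraries. The fold rise over untreated cells was the larger in the knockout (21.6-fold against 11.2-fold for Oas3, 15.4-fold against 8.43-fold for Oas2).

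Oas1a reached 307, 339 and 330 CPM in wild-type and 205, 196 and 197 CPM in knockout cells, and Oas1g reached 76.9, 85.5 and 87.3 CPM against 34.6, 33.1 and 34.2 CPM. Oas1b reached 58.0, 60.8 and 59.0 CPM against 48.4, 44.0 and 46.9 CPM. The rise in wild-type cells was 9.72-fold for Oas1a, 12.4-fold for Oas1g and 7.77-fold for Oas1b. Summed over all Oas1 copies it was 3.22 ± 0.12 on the log2 scale in wild-type and 3.74 ± 0.12 in knockout cells (SE; edgeR FDR 1.05e-20 and 1.24e-21). Oas1c rose least of the 8, by 2.55-fold, to 7.03, 8.82 and 7.96 CPM in wild-type cells and 6.32, 6.04 and 5.58 CPM in knockout cells. The relation of these sizes to the matches in the printed sequences was not tested, and Oasl1 and Oasl2, with no match in their windows, rose by more in wild-type cells than the 4 members that have one.

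**Figure D3:**
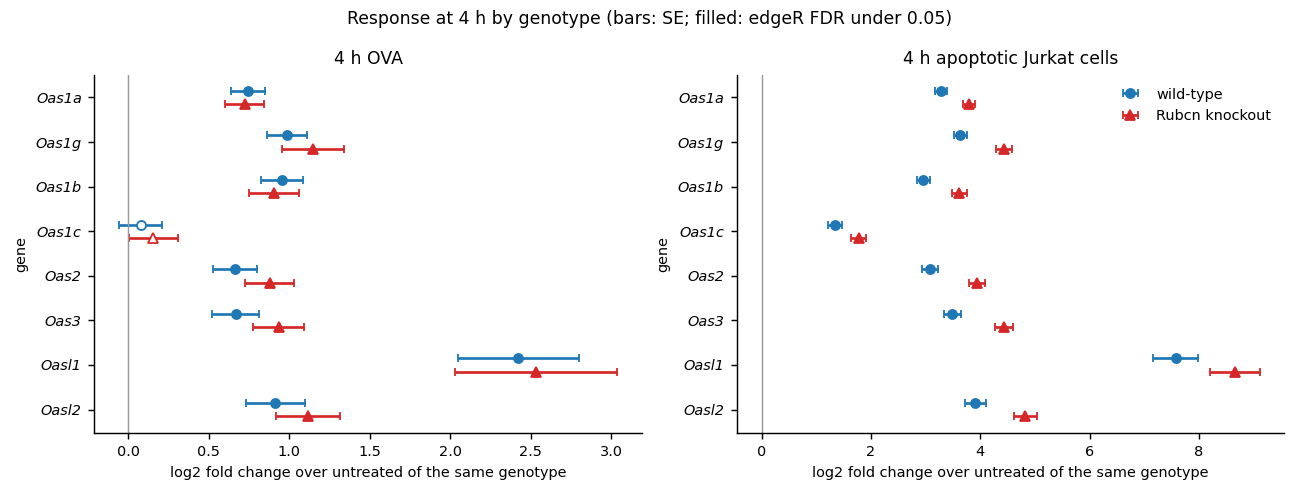
Log2 fold change over untreated cells of the same genotype after 4 h of OVA (left) and of apoptotic Jurkat cells (right), with SE bars; circles are wild-type, triangles Rubcn KO, and open points did not pass the edgeR threshold. Genotypes lie close together with OVA, knockout points lie to the right of wild-type points for all 8 genes with Jurkat cells, and Oasl1 responds most and Oas1c least.

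The response to Jurkat cells at 4 h differed between genotypes for 5 of 8 members, all larger in knockout cells as a fold change over untreated cells. Of all tested genes, 1.72% differed in that direction. In CPM the rise of these 5 members was smaller in knockout cells. Mean Oas3 went from 20.8 to 448 CPM there and from 60.4 to 678 CPM in wild-type cells. The difference on the log2 scale was 0.94 ± 0.21 for Oas3 (SE; edgeR FDR 0.00892) and 0.86 ± 0.20 for Oas2 (FDR 0.0119). It was 0.91 ± 0.26 for Oasl2, 0.80 ± 0.21 for Oas1g and 0.66 ± 0.19 for Oas1b (FDR 0.0429, 0.0248 and 0.0405). With copies summed, 0 sums were called: the difference was 0.51 ± 0.16 for the Oas1 copies (SE; edgeR FDR 0.0611) and 0.92 ± 0.33 for Oasl1 and Oasl2 (FDR 0.114). DESeq2 called Oas2, Oas3 and Oas1g, and not Oas1b and Oasl2 (adjusted p 0.0606 and 0.0744). Knockout cells started lower and ended lower, and the gap between genotypes was narrower on the log2 scale at 4 h of Jurkat cells than in untreated cells. The Oas2 and Oas3 calls were kept when each of the 12 libraries was left out in turn (FDR at most 0.0384 and 0.0277). The others depended on single libraries: the Oasl2 call was lost without any of the 12 (FDR 0.053 to 0.106). The Oas1g call was lost without untreated knockout replicate 1 or 3 or untreated wild-type replicate 2 or 3 (FDR 0.051 to 0.0768). The Oas1b FDR ranged from 0.0482 to 0.124, and its call was lost without any library other than knockout Jurkat replicate 2 and untreated wild-type replicates 1 and 2. Rubcn KO, 30 min Jurkat, replicate 1 and the shallowest library are in none of these 4 groups and were picked after seeing the data. In the model without them 7 of 8 members were called, Oas1a (0.51, FDR 0.000983) and Oasl1 (1.08, FDR 0.00501) being added. Knockout Jurkat replicate 2, the library high in ribosomal counts, is in 1 of the 4 groups: with it alone left out 4 members were called (Oas1b, Oas1g, Oas2 and Oas3, FDR 0.0151 to 0.0498), and with all 3 libraries left out 7 were.

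Most T-lineage marker genes were higher in libraries given Jurkat cells than in untreated ones by edgeR. Of 19 tested at 4 h, 16 were higher and 2 lower in wild-type cells, and 14 higher and 2 lower in knockout cells. Of all tested genes 38.9% and 37.5% were higher. At 30 min 12 were higher in wild-type and 11 in knockout cells, and 0 were lower (14.2% and 8.72% of all tested genes were higher). The 20 genes summed to 157 to 182 CPM in knockout and 191 to 235 CPM in wild-type cells at 4 h, and to 66.5 to 85.6 CPM in libraries without Jurkat cells. The knockout to wild-type ratio of the means was 0.764 at 4 h and 0.838 at 30 min, with an exact permutation p of 0.1 each, the smallest that 3 against 3 libraries allow. These sums include the level found without Jurkat cells, which was not subtracted. Its untreated mean was 81.3 CPM in knockout and 77.2 CPM in wild-type cells, so the ratios understate the difference in added reads. The part of this difference in the OAS results at 4 h was not tested. Without Jurkat cells the members were also lower in knockout cells (median log2 fold change -1.49 untreated, -1.26 with OVA for 4 h). Those groups held no Jurkat cells, so their values cannot size the part of the marker difference.

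Levels between genes were compared as CPM per kilobase of exon (GENCODE M21). In untreated wild-type cells the order was Oasl2 (20.1 ± 1.81 SD, n = 3), Oas1a (17.8 ± 0.50), Oas2 (15.02 ± 1.09), Oas3 (12.8 ± 1.26), Oas1b (4.14 ± 0.50), Oas1g (3.39 ± 0.20), Oasl1 (2.92 ± 0.20) and Oas1c (1.36 ± 0.20). Libraries of Oasl2 and Oas1a overlapped, and no other neighbours in the order did. After 4 h of Jurkat cells Oasl1 moved from rank 7 to rank 1 in wild-type cells (558 ± 37.6 CPM per kilobase) and from rank 6 to rank 1 in knockout cells (344 ± 13.7), where its untreated libraries overlapped those of Oas1g at rank 7. It was then ahead of Oasl2 (302 ± 29.5 and 187 ± 9.14) with no overlap. Oas1c was last in the untreated and 4 h groups, without overlap except in untreated knockout cells, where Oas1c (0.76 ± 0.08) and Oas1g (0.80 ± 0.09) overlapped.

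Ratios between copies do not depend on library scaling. There were 0.200 ± 0.01 Oas1g counts per Oas1a count (SD, n = 3) in untreated wild-type cells and 0.109 ± 0.005 in untreated knockout cells. Ratios at 4 h of Jurkat cells were 0.256 ± 0.008 and 0.170 ± 0.003. The ratio was lower in knockout cells in all 5 conditions with no overlap of libraries, by 0.544 to 0.665 times, each with an exact permutation p of 0.1 (Benjamini-Hochberg adjusted over the 5 conditions, 0.1), the smallest that 3 against 3 allow. Because more than 30% of the 100-base words of each gene are shared with the other, how reads were split bears on these ratios, and its part was not tested. For Oasl1 per Oasl2, the ratio was 0.104 ± 0.014 in wild-type and 0.091 ± 0.013 in knockout cells untreated, and 1.31 ± 0.05 and 1.30 ± 0.01 at 4 h of Jurkat cells. Genotypes overlapped in this ratio in 4 of 5 conditions, the exception being 30 min of Jurkat cells (0.430 ± 0.265 in knockout against 0.158 ± 0.020 in wild-type cells, exact permutation p = 0.1, adjusted 0.375).

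**Figure D4:**
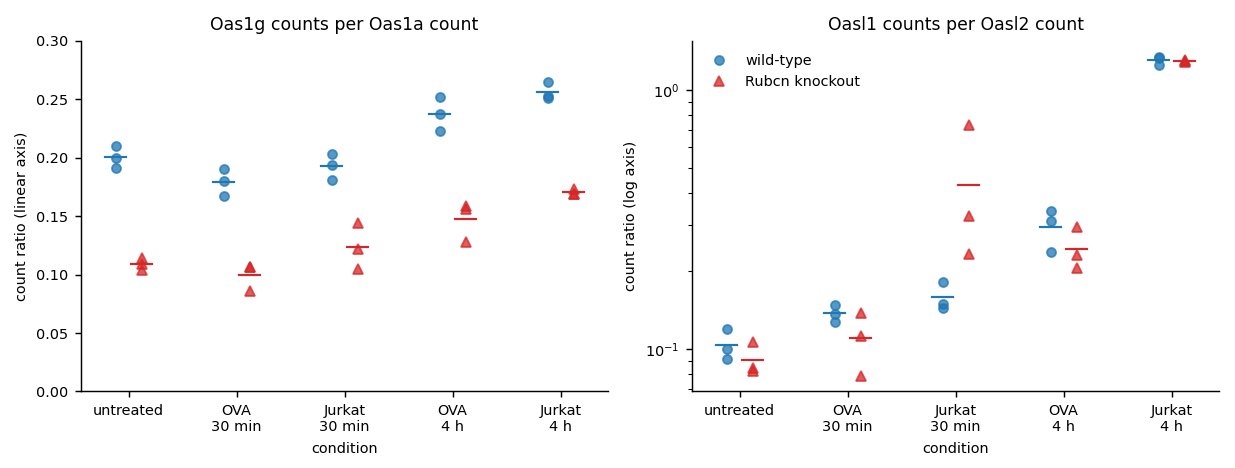
Counts of Oas1g per count of Oas1a (left, linear axis) and of Oasl1 per count of Oasl2 (right, log axis) in each library by condition, with means as lines; circles are wild-type and triangles Rubcn KO. On the left the genotypes are separate in all 5 conditions (0.109 against 0.200 untreated), and on the right both reach 1.30 to 1.31 at 4 h of Jurkat cells.

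A list of other genes of the pathway held Abce1, which encodes a ribosome recycling factor, Pde12, which encodes a phosphodiesterase that degrades 2'-5' chains, and 4 further Oas1 copies. Oas1d, Oas1e and Oas1f did not pass the filter, with at most 7, 3 and 2 counts in any library. Of the 6 genes, 3 were tested. In knockout cells 0 were lower at 30 min of OVA, 1 was lower in each of the other 4 conditions, and 0 were higher in any. The gene called was Oas1h in untreated cells and at 4 h of either treatment (untreated 14, 11 and 9 counts in wild-type libraries and 1, 1 and 2 in knockout libraries). Pde12 was the gene called at 30 min of Jurkat cells (-0.16 ± 0.05 SE, edgeR FDR 0.0355), a call that was lost without knockout replicate 1. Pde12 at 4 h of Jurkat cells was higher than in untreated cells, by 0.27 ± 0.05 in wild-type and 0.26 ± 0.05 in knockout cells (SE, log2; edgeR FDR 2.33e-05 and 3.46e-05).

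Most of the other listed sensors and responders of double-stranded RNA were lower in 4 of the 5 conditions. Of 8 listed genes, 6 were lower and 0 higher in knockout cells untreated, at 30 min of OVA and at 4 h of either treatment, and 1 was lower at 30 min of Jurkat cells. Replicate 1 of the knockout group was the highest of its group there too for 7 of the 8 (Zbp1 at 21.6 against 7.95 and 10.3 CPM, Ifih1 at 61.5 against 27.5 and 30.02 CPM), and without it 6 of 8 were lower. Their median log2 fold change in untreated cells was -0.57, against -1.49 for the OAS members and -0.01 for all genes. Zbp1, a sensor of Z-form nucleic acid, stood at 7.26 CPM in knockout and 16.8 CPM in wild-type cells (means, log2 fold change -1.21 ± 0.20 SE, edgeR FDR 0.000159). Dhx58, which encodes LGP2, stood at 49.5 against 80.5 CPM (-0.70 ± 0.09, FDR 7.52e-06). The adaptor gene Mavs and the endosomal receptor gene Tlr3 were not called (-0.02 ± 0.05 and -0.01 ± 0.06, FDR 0.912 and 0.976), and at 4 h of Jurkat cells they were lower than in untreated wild-type cells (-1.24 ± 0.05 and -1.42 ± 0.06, FDR 1.76e-18 each) while the other 6 were higher.

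Of 9 genes of the interferon receptor and ISGF3 arm, 3 were lower and 0 higher in untreated knockout cells. They were Irf7, the inducible driver of interferon genes (74.3 against 157 CPM, log2 fold change -1.08 ± 0.15 SE, edgeR FDR 1.29e-05), Irf9 (122 against 156 CPM, -0.35 ± 0.05) and Stat2 (246 against 289 CPM, -0.23 ± 0.07). The receptor genes and kinases Ifnar1, Ifnar2, Jak1 and Tyk2 lay between -0.08 and 0.04. In the other conditions 2 to 5 of the 9 were lower and 0 higher. Ifnb1 had 0 counts in all 6 untreated libraries, and at 4 h of Jurkat cells it had 156, 126 and 135 counts in knockout and 369, 529 and 403 counts in wild-type libraries (log2 fold change -1.77 ± 0.22 SE, edgeR FDR 3.86e-06).

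**Figure D5:**
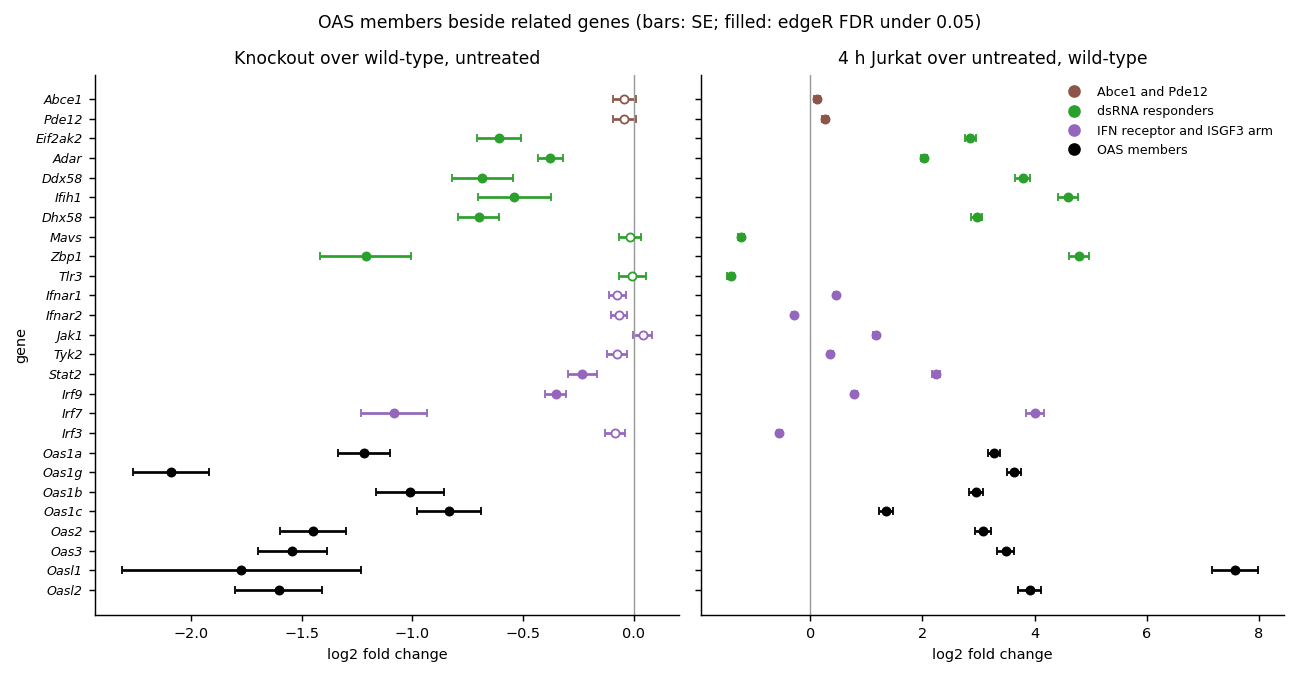
Log2 fold change with SE bars for the OAS members (black) and the listed related genes, for Rubcn KO over wild-type untreated cells (left) and 4 h of Jurkat cells over untreated wild-type cells (right); filled points passed the edgeR threshold, and the low-count genes Oas1h and Ifnb1 are not drawn. On the left, Mavs, Tlr3 and the receptor genes sit near 0 while the OAS members lie between -2.09 and -0.83; on the right, Mavs, Tlr3, Ifnar2 and Irf3 lie below 0.

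The genes whose pattern was most like that of the family were ranked by Pearson's r between log2 CPM group means and the family's mean standardised profile, over the 10 groups. They were Xaf1, Ifi209, Trim30b, Lgals3bp and Ms4a6b (r = 0.999, 0.999, 0.998, 0.998 and 0.997). The 2 groups at 4 h of Jurkat cells set much of this likeness, since 685 other genes had r above 0.95, against 97 over the 8 remaining groups. Over those 8 groups the leading genes were Xaf1, Dck, Dhx58, Ifi208 and Ifi209 (r = 0.997, 0.995, 0.995, 0.991 and 0.991). Within the family, Oasl1 and Oas1c were least alike over the 8 groups (r = 0.535), and Oas1a and Oas1g most alike (r = 0.997). Groups share libraries' depth and culture, and these values are descriptions without a test.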

How the data were processed

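RNA-seq of 30 libraries in 10 groups of 3 was analysed, with groups and replicate numbers taken from sample titles. The authors deposited 1 table of raw whole-number counts per gene with mm10 intervals, per the file headers. The submitters' processing notes name STAR 2.5, Subread, featureCounts 1.5.0-p1, DESeq2 and mm10. The use of strand and of multi-mapping reads is not given in the sources used here. Per the labels' protocols, RNA was extracted with Trizol and a column, and libraries came from a TruSeq RNA kit.

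Counts were scaled by TMM (factors 0.765 to 0.842 at 4 h of Jurkat cells, 1.03 to 1.07 elsewhere) and filtered with filterByExpr, which left 14808 genes. Genes were tested with edgeR (4.0.16, R 4.3.3; quasi-likelihood), fitting the 10 group means to the 30 libraries at once. Benjamini-Hochberg FDR under 0.05 made a call, and each SE was derived from the fold change and its F statistic. Sums and ratios of 3 against 3 libraries were tested by two-sided exact permutation (scipy 1.17.1). On simulated counts for untreated KO against WT (14573 genes), 47 of 50 genes changed 1.5-fold and all 50 changed 3-fold were recovered, with 7 false calls. All 50 genes lowered to 0.5 times and all 50 lowered to 0.25 times were recovered too. Each gene was simulated at its mean over all libraries, with no other group difference. Changed genes were drawn only from those above a low mean level, so recovery of lower genes was not simulated.

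Named genes are the 8 members, 3 lists of related genes (2 listed genes are not reported here) and, by likeness, the top 5. The members and lists were chosen with earlier results of these data known. Alternatives were DESeq2 (1.42.0) and its size factors, total-count scaling, no filter, at least 5 CPM in 3 libraries, a replicate block, the compared groups alone, summed paralogs and each library left out. Leaving out Rubcn KO, 30 min OVA, replicate 3 and 30 min Jurkat, replicate 1 together, and these with 4 h Jurkat, replicate 2, was added after seeing the data.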

Additional observations from a re-analysis of the deposited data

Results flagged for a closer look

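The response to 4 h of apoptotic Jurkat cells differed between genotypes for 5 members by edgeR's interaction term. On the log2 scale it was larger in Rubcn KO cells in each case. The difference (knockout minus wild-type, log2) was 0.660 for Oas1b, 0.799 for Oas1g, 0.865 for Oas2, 0.945 for Oas3 and 0.912 for Oasl2. The absolute level of each stayed lower in knockout cells at that time, and its rise in CPM was smaller there.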

How the results depend on the processing

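No called member value changed sign under any alternative, and of 152 member values (8 members in 19 comparisons) 34 changed side of the threshold under at least 1 alternative. Counts of members called in the KO against WT comparisons stayed within 1.5 times the main count under every alternative. These counts pool both directions and do not follow which members were called. At 30 min of Jurkat cells, leaving out the filter added Oas1b as lower and Oasl1 as higher (log2 fold change 1.08, edgeR FDR 0.0394). There the compared groups alone added Oas1c (FDR 0.0438) and lost Oas3 and Oasl2 (FDR 0.0741 and 0.192). For 30 min of Jurkat cells in wild-type cells, 5 members were called with the compared groups alone, 1 with summed paralogs and 4 without the 2 libraries at 30 min that stand apart. Of the 5, Oasl1 was higher (log2 fold change 0.31, edgeR FDR 0.0224) and the others were lower. For the same treatment in knockout cells, 1 was called with the compared groups alone, 1 without those 2 libraries and 1 to 5 with single libraries left out. For 30 min of OVA in wild-type cells, 4 were called without those 2 libraries and 0 to 1 with single libraries left out. The genotype difference in response at 30 min of Jurkat cells called 1 member without a filter, 1 with DESeq2, 1 without those 2 libraries and 0 to 4 with single libraries left out. At 4 h of Jurkat cells it called 2 members with summed paralogs, 3 with DESeq2 and 2 to 5 with single libraries left out. With knockout 4 h Jurkat replicate 2 left out as well, each count of members was the same as without those 2 libraries alone. For these changes the cause was not tested.

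Counts over all genes moved by more than 1.5 times with the compared groups alone for KO against WT at 30 min of Jurkat cells (1370 to 891), 30 min of OVA in wild-type (1578 to 833) and knockout cells (558 to 246), 30 min of Jurkat cells in knockout cells (2514 to 1460) and the genotype difference at 4 h of Jurkat cells (631 to 337). Without the 2 libraries that stand apart, 30 min of OVA and of Jurkat cells in knockout cells called 331 and 1658 genes (359 and 1674 without all 3). The genotype differences at 30 min of Jurkat cells and 4 h of OVA called 1 and 6 genes, against 7 and 11 without a filter, 0 and 10 with the stricter filter, 22 and 25 with DESeq2, 6 and 23 without those 2 libraries and 5 and 18 without all 3 (0 for the first with the compared groups alone). With single libraries left out, KO against WT called 898 to 1357 genes untreated (1477 with all), 718 to 1792 at 30 min of OVA (1834), 708 to 1158 at 30 min of Jurkat cells (1370), 1172 to 1709 at 4 h of OVA (1861) and 2189 to 3102 at 4 h of Jurkat cells (3392). Against untreated cells, 30 min of OVA called 903 to 1847 genes in wild-type and 173 to 710 in knockout cells, 4 h of OVA in knockout cells 1105 to 1382 (1722) and 30 min of Jurkat cells in knockout cells 1674 to 2369. The genotype differences called 0 to 81 at 30 min of Jurkat cells, 3 to 15 at 4 h of OVA and 362 to 637 at 4 h of Jurkat cells.

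Total-count scaling moved the share of higher calls among all genes called by over 10 percentage points for KO against WT at 30 min of OVA (50.5% to 63.8%), 4 h of OVA (49.5% to 64.5%) and 4 h of Jurkat cells (40.9% to 74.8%), for the genotype difference at 4 h of Jurkat cells (40.3% to 76.8%), for 4 h of Jurkat cells against untreated (48.9% to 29.0% in wild-type, 47.8% to 29.2% in knockout cells) and against 4 h of OVA (48.0% to 26.5% and 47.5% to 27.5%). In KO against WT at 4 h of Jurkat cells 7 members were lower under TMM and 6 under total-count scaling.

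The labels give no shared source for the replicate numbers. Deviations from group means of same-numbered knockout and wild-type libraries correlated at -0.118 to 0.108 over 15 pairs, 1 of them over 0.1. With their own number 14 of 30 libraries correlated best, where 10 would by chance, which does not show that pairing is absent. With the replicate number as a block, 8, 8, 5, 8 and 7 members were called in the 5 KO against WT comparisons, against 8, 7, 5, 8 and 7 without it. Depth limits Oas1h and Ifnb1, and Rubcn KO, 30 min OVA, replicate 3 held 13 Oas1g and 26 Oasl1 counts.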
